A study of Homo sapiens with 6 samples.

Results

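The genes of extracellular nucleotide and adenosine signalling described here were the adenosine receptor genes ADORA2A, ADORA2B and ADORA3, the ATP receptor genes P2RX4, P2RX7 and P2RY2, and the enzyme genes ENTPD1, NT5E, ADA and CD38. They were chosen by gene name, as every probe that the platform's probe table maps to one of these 10 symbols. All 10 genes were found, with 15 probes among the 31741 of the array, and none of the 15 carried a second symbol. The array as a whole measured 18255 named genes.

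RNA of THP-1, a human cell line derived from a monocytic leukaemia and kept in low-serum medium, was measured on 6 single-colour Cy5 arrays in 3 groups of 2. LC53 plus LPS cells received the compound LC53 at 5 µM, then 15 min later lipopolysaccharide (LPS, a bacterial cell wall product that activates TLR4) at 50 ng/ml for 8 h. LPS cells received the same LPS without LC53, and resting cells, whose titles also give 8 h, received neither. No group had LC53 alone. Nothing in the labels tells separate cultures from repeat arrays within a group, so p-values measured the spread between these arrays, which may be technical. The series title names theissenolactone C and the kinases TAK-1 and IKK, and no structure is stated for LC53.

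Stressed and activated cells release ATP, which acts on P2X ion channels and on P2Y receptors coupled to G proteins. The surface enzymes CD39 (gene ENTPD1) and CD73 (gene NT5E) cut ATP to AMP and AMP to adenosine, and adenosine deaminase (gene ADA) turns adenosine into inosine. Adenosine acts on its own receptors, of which those encoded by ADORA2A and ADORA2B raise cyclic AMP and can restrain cytokine release from monocytes and macrophages. ATP acting on P2X7 is the textbook trigger of the NLRP3 inflammasome in LPS-primed monocytes.

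The deposited values were linear probe intensities, which are not comparable between probes, so each probe was compared only with itself. Median intensity ran from 84.4 on LPS replicate 1 to 124.04 on LPS replicate 2, so the LPS arrays were the dimmest and the brightest of the 6. The factors by which the arrays had been scaled have reciprocals that average 1.0000 within each group. They were thus relative within a group, and a common scale of the 3 groups is not shown. Differences are log2 differences between group means ± SE with their 95% interval, from limma on all probes, and a probe passed at a Benjamini-Hochberg adjusted p under 0.05 over all 31741 probes. The median log2 difference of all probes was 0.15 for LC53 plus LPS minus LPS, 0.11 for LC53 plus LPS minus resting and -0.05 for LPS minus resting, and the members' differences are to be read against these. In each comparison more of all probes passed with an offset of 50, quantile normalization or cyclic loess than as deposited. For LC53 plus LPS minus LPS the share rose from 2.63% to 7.46%, 11.8% and 11.3%. Member calls reached only under such settings are to be read against this rise. As a check of the treatments, IL1B, the gene of the cytokine interleukin-1 beta, read 2696 and 2865 with LC53 plus LPS, 39650.5 and 37746 with LPS, and 168 and 198 in resting cells. HMOX1, the gene of haem oxygenase 1, read 7712 and 7642 with LC53 plus LPS, 886 and 1019 with LPS, and 73.4 and 78.7 in resting cells. Of 10 monocyte and THP-1 markers 9 were matched, and all 9 read at least 50 on every array. Of 17 markers of other cell types 15 were matched, and 7 of these also read at least 50 on every array, among them CD3D, NKG7 and COL1A1. The summed intensity of the 15 was 4666 to 5326 on LC53 plus LPS arrays, 4809 to 5568 on LPS arrays and 4667 to 5234 on resting arrays. None of the 15 was at 0 on all arrays, the lowest being COL3A1, at most 3.12, and their part in the results was not tested.

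ADORA2A, which encodes a high-affinity adenosine receptor, was the member most raised by LPS, and LC53 lowered it. Its probe (PH_hs_0022955) read 355 and 363 on the LC53 plus LPS arrays, 1432 and 1598 on LPS arrays, and 44.6 and 59.5 on the resting arrays. The 3 groups did not overlap, and the LC53 plus LPS arrays lay between the other two. With LPS the gene was higher than in resting cells by 4.88 ± 0.21 on the log2 scale (95% interval 4.35 to 5.41; limma adjusted p = 0.000408), a 29.4-fold difference. With LC53 plus LPS it was lower than with LPS by 4.22-fold, a log2 difference of -2.08 ± 0.21 (-2.61 to -1.55; adjusted p = 0.0126), or -2.22 relative to the median of all probes. It was still 6.96-fold higher with LC53 plus LPS than in resting cells (2.80 ± 0.21, adjusted p = 0.00515). The LPS rise passed in all 11 distinct alternative fits. Among markers of other cell types, the fibroblast gene DCN had the same order of groups, at 29.0 and 24.5 with LC53 plus LPS, 112 and 160 with LPS, and 11.9 and 10.1 in resting cells, while COL1A1 read 453 and 461 with LC53 plus LPS, 272 and 437 with LPS and 402 and 396 in resting cells and COL3A1 was at most 3.12; their part in the result was not tested. The fall with LC53 ended as a call without LC53 plus LPS replicate 1 (adjusted p = 0.0941) or 2 (0.106), and the rise over resting cells without either of these (0.0565 and 0.0573) or without resting replicate 1 (0.0647). In bulk RNA, fewer cells with a transcript and less transcript per cell cannot be told apart.

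ADORA2B, which encodes a receptor of lower affinity for adenosine, read 356 and 228 on the LC53 plus LPS arrays, 22.9 and 69.2 on LPS arrays, and 22.8 and 21.2 on the resting arrays (probe PH_hs_0028884). Both LC53 plus LPS arrays stood above all others, while LPS replicate 1 was level with the resting arrays and LPS replicate 2 stood above them. The gene rose with LC53 plus LPS against resting cells by 3.70 ± 0.54 on the log2 scale (2.37 to 5.02; limma adjusted p = 0.0295), or 2.22 with an offset of 50 added to each intensity, since the resting values lay in the lowest 28% of probes. That call ended without LC53 plus LPS replicate 1 (0.167) or 2 (0.115) or resting replicate 1 (0.169) or 2 (0.168). Against LPS the difference was 2.84 ± 0.54 (1.51 to 4.16; adjusted p = 0.0618), which did not pass as deposited. It passed without LPS replicate 2 (adjusted p = 0.0341), with the offset of 50 (1.85, 0.0279) and under quantile normalization (0.015), median centring (0.026) and cyclic loess (0.0173). LPS minus resting was 0.86 ± 0.54 (-0.47 to 2.18; adjusted p = 0.469), with 0.06 without LPS replicate 2 and 1.66 without LPS replicate 1. Among markers of other cell types, the epithelial gene EPCAM was also brighter with LC53 plus LPS, at 147 and 174, against 37.5 and 40.4 with LPS and 6.94 and 40.3 in resting cells. Of the other 2 epithelial markers, CDH1 read 7.25 and 8.93 with LC53 plus LPS, 10.4 and 12.5 with LPS and 7.93 and 6.05 in resting cells, and KRT19 read 43.5 and 49.1 with LC53 plus LPS, 20.8 and 42.3 with LPS and 24.8 and 39.3 in resting cells. Their part in the result was not tested.

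ADORA3 encodes the A3 receptor, which lowers cyclic AMP, and its 2 probes gave different sizes. The second probe, of lower mean, (PH_hs_0002520) read 111 and 116 on LC53 plus LPS arrays, 206 and 241 on LPS arrays, and 398 and 429.6 on resting arrays. Its 3 groups did not overlap and stood in that order from low to high. It fell with LC53 plus LPS against resting cells by 1.87 on the log2 scale (SE 0.19; adjusted p = 0.0103), a 3.65-fold difference, a call that ended without any one of the 4 arrays compared (0.0912 to 0.132). Its differences for LPS minus resting (-0.89 ± 0.19, adjusted p = 0.0518) and LC53 plus LPS minus LPS (-0.98 ± 0.19, adjusted p = 0.0626) did not pass as deposited. Both passed with the offset of 50 (0.0101 and 0.0169), quantile normalization (0.00959 and 0.0108) and cyclic loess (0.0165 and 0.011), and the LPS difference also without LPS replicate 2 (0.0422). The first probe (PH_hs_0031122) read 189 and 224 with LC53 plus LPS, 224 and 272 with LPS and 287 and 355 in resting cells. The LC53 plus LPS and LPS arrays overlapped and both lay below the resting arrays, with LC53 plus LPS minus resting at -0.63 ± 0.22 (-1.18 to -0.08; adjusted p = 0.24), which did not pass. In the RefSeq gene table ADORA3 overlaps TMIGD3, another protein-coding gene, and the probe table did not say which transcripts either probe meets.

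**Figure D1:**
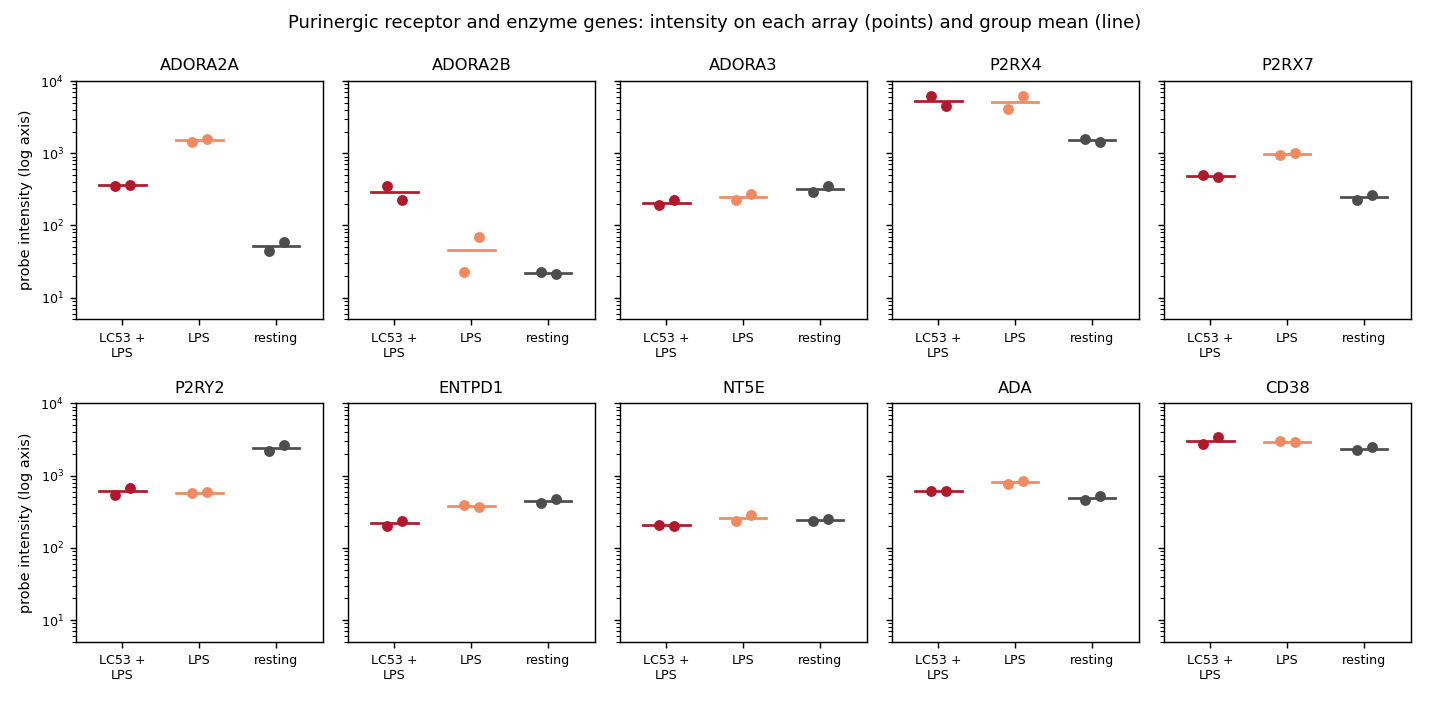
Probe intensity (log axis) of the 10 genes, by first probe, on each array (points) with the mean of the 2 arrays of a group (line), for LC53 plus LPS, LPS and resting cells from left to right. ADORA2A peaks in LPS cells at 1432 and 1598, ADORA2B in LC53 plus LPS cells at 356 and 228, and P2RY2 in resting cells at 2191 and 2661.

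P2RX7 and P2RX4 encode ATP-gated cation channels and both rose with LPS, while neither passed for LC53 plus LPS minus LPS as deposited. In the RefSeq gene table they stand side by side on chromosome 12, with 1 noncoding locus between P2RX7 and P2RX4 that overlaps P2RX7. The P2RX7 probe (PH_hs_0022228) read 501 and 469.8 on the LC53 plus LPS arrays, 937 and 1007 on LPS arrays and 227 and 266 on the resting arrays. As for ADORA2A, the groups did not overlap and the LC53 plus LPS arrays were intermediate. The LPS rise was 3.95-fold (1.98 ± 0.19; 1.52 to 2.44; limma adjusted p = 0.00412), and the call ended without resting replicate 1 (0.0602). LC53 plus LPS minus LPS was -1.002 ± 0.19 (-1.46 to -0.54; adjusted p = 0.0601), and LC53 plus LPS minus resting was 0.98 ± 0.19 (0.52 to 1.44; adjusted p = 0.0613). Neither passed as deposited, and both passed with the offset of 50 (0.0107 and 0.0129), under quantile normalization (0.0136 and 0.0158) and cyclic loess (0.0127 and 0.0173), and when only probes with a mean intensity of at least 50 were tested (0.0166 for each). Under these settings a larger share of all probes passed too, and neither difference passed under median centring.

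P2RX4 (probe PH_hs_0032657) read 6109.8 and 4498 on the LC53 plus LPS arrays, 4146 and 6141 on LPS arrays, and 1571 and 1453 on the resting arrays. All 4 stimulated arrays stood above both resting arrays, and the LC53 plus LPS and LPS arrays overlapped. The gene rose 3.34-fold with LPS (1.74 ± 0.27; 1.06 to 2.42; adjusted p = 0.0211) and 3.47-fold with LC53 plus LPS against resting cells (1.79 ± 0.27; adjusted p = 0.034). The LPS call ended without resting replicate 1 (0.139) or 2 (0.153), and the other without LC53 plus LPS replicate 1 (0.204) or 2 (0.121) or resting replicate 1 (0.223) or 2 (0.242). LC53 plus LPS minus LPS was 0.06 ± 0.27 with a 95% interval of -0.62 to 0.73 (adjusted p = 0.936), so a difference of the size seen for P2RX7 lay outside this interval, although the difference between the 2 genes' responses was not tested.

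The promoters of P2RX7, P2RX4 and ADORA2B are shown because these genes rose with LPS or with LC53 plus LPS and because they can be set beside each other. The RefSeq promoter table (GRCh38.p14) matched 8 of the 10 genes with 12 starts, 5 of them of ENTPD1, and the 250 bases before each start were searched on both strands. ADORA2A and P2RY2 had no entry in it, so their promoters were not searched. The 7 patterns were an NF-kB pattern (GGG, any 5 bases, CC), a stricter form of it (GGG, any 2 bases, TTTCC, every match of which also matches the first), the interferon response element (GAAA, any 2 bases, GAAA), the AP-1 site (TGANTCA), the cyclic AMP response element (TGACGTCA), the antioxidant response element (TGACNNNGC) and the hypoxia response element (ACGTG). Capitals mark matches of the first NF-kB pattern and of the antioxidant response element, and adjoining capitals can be overlapping matches. P2RX7 lies at chr12:121132626-121132875 on the plus strand, P2RX4 at chr12:121209879-121210128 on the plus strand and ADORA2B at chr17:15944880-15945129 on the plus strand, each written 5′ to 3′.
P2RX7: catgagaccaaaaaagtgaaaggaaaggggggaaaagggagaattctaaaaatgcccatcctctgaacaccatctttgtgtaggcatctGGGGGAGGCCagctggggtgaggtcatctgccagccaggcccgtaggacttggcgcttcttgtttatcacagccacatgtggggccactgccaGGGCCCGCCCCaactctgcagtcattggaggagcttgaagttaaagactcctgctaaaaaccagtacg
P2RX4: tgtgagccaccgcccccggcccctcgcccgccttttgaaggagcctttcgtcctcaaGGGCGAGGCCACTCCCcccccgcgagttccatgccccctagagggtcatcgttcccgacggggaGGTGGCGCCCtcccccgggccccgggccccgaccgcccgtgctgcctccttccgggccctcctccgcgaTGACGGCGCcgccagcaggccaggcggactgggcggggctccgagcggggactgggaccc
ADORA2B: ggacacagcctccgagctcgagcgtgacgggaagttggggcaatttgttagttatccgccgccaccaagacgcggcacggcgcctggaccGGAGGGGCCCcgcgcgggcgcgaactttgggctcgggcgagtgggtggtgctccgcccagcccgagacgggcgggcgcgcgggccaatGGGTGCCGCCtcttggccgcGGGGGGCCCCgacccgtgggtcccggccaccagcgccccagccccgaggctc
The loose NF-kB pattern was found in all 3 of these promoters and in 7 of the 12 member promoters, but also in 54.4% of all 35116 promoters searched. The antioxidant response element was found in P2RX4 and NT5E, 2 of 12, against 10.9% of all promoters. The other 5 patterns matched none of the 12 windows, and their shares among all promoters ran from 1.65% to 18.5%. GC content of the window was 53.2% for P2RX7, 76% for P2RX4 and 75.2% for ADORA2B. A match here is a description of letters, not a bound site.

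P2RY2, which encodes a receptor for ATP and UTP coupled to G proteins, fell against resting cells both with LC53 plus LPS and with LPS. Its first probe (PH_hs_0060920) read 537 and 678 on the LC53 plus LPS arrays, 569 and 593 on LPS arrays, and 2191 and 2661 on the resting arrays. Its second probe (PH_hs_0000043) read 156 and 131 with LC53 plus LPS, 104 and 145 with LPS, and 411 and 449 in resting cells. On both probes every stimulated array lay below both resting arrays, and the 2 stimulated groups overlapped. LPS lowered the first probe 4.16-fold (-2.06 ± 0.21; limma adjusted p = 0.00557) and the second 3.49-fold (-1.80 ± 0.24; adjusted p = 0.0117). LC53 plus LPS minus resting was -2.00 ± 0.21 (adjusted p = 0.0129) on the first and -1.59 ± 0.24 (adjusted p = 0.0319) on the second. LC53 plus LPS minus LPS was 0.06 ± 0.21 (-0.47 to 0.58; adjusted p = 0.911) and 0.21 ± 0.24 (-0.37 to 0.80; adjusted p = 0.65). The LPS call ended without resting replicate 2 on the first probe (0.0648), and without resting replicate 1 (0.0989) or 2 (0.111) on the second. The calls of LC53 plus LPS minus resting ended on both probes without any one of the 4 arrays compared (0.0735 to 0.256).

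**Figure D2:**
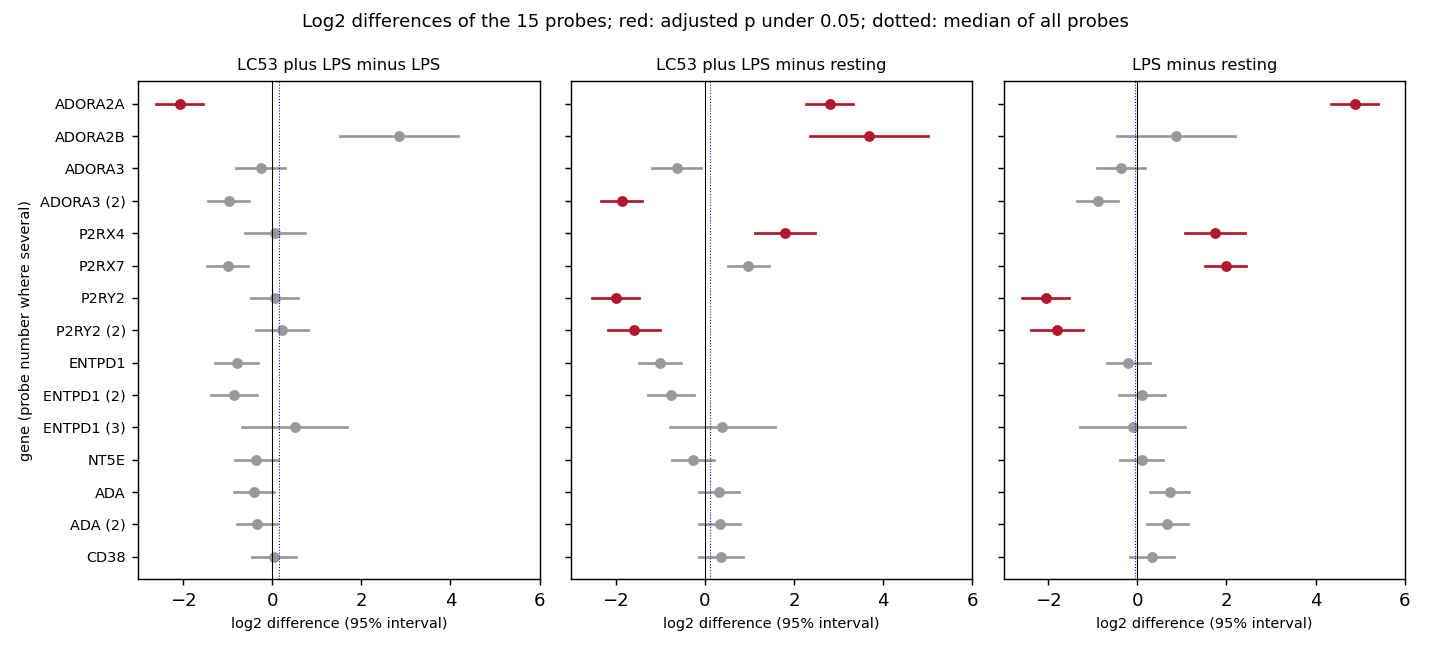
Log2 differences (points) with 95% intervals that are not adjusted for multiple testing (lines) of the 15 probes for LC53 plus LPS minus LPS, LC53 plus LPS minus resting and LPS minus resting, in red where the adjusted p is under 0.05, with the median of all probes dotted. In LC53 plus LPS minus LPS only ADORA2A is red, at -2.08, while ADORA2B lies at 2.84 with the widest interval of the 15 in that comparison.

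None of the 7 probes of the enzyme genes passed in any of the 3 comparisons with the values as deposited. ENTPD1, which encodes CD39, had the lowest LC53 plus LPS values relative to LPS among the enzyme genes. Its first probe (PH_hs_0025943) read 204 and 238 on the LC53 plus LPS arrays, 398 and 367 on LPS arrays and 412 and 474 on the resting arrays. The LC53 plus LPS arrays were below the other 4, with a log2 difference of -0.80 ± 0.19 from LPS (-1.28 to -0.32; limma adjusted p = 0.111) and of -1.005 ± 0.19 from resting cells (-1.49 to -0.52; adjusted p = 0.0634). With the offset of 50 both passed (0.0305 and 0.0169). The second probe (PH_hs_0045211), with 22.6 and 23.4 for LC53 plus LPS, 36.5 and 48.1 for LPS and 37.7 and 40.3 for resting cells, differed by -0.86 ± 0.21 from LPS (adjusted p = 0.11), and passed under quantile normalization (0.0126) and cyclic loess (0.0118). It was under 50 on all 6 arrays, and with the offset of 50 its difference was -0.33 (adjusted p = 0.103). The third probe (PH_hs_0041105) read 25.4 and 24.5 with LC53 plus LPS, 10.4 and 29.8 with LPS and 18.8 and 19.2 in resting cells, and was also under 50 on all 6 arrays. Its LC53 plus LPS minus LPS difference was 0.50 ± 0.48 (adjusted p = 0.598), and its sign rested on 1 array, with -0.26 (adjusted p = 0.42) without LPS replicate 1 and 1.26 (adjusted p = 0.0439) without LPS replicate 2.

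NT5E, which encodes CD73, the enzyme that makes adenosine from AMP, read 205 and 203 on the LC53 plus LPS arrays, 235 and 289 on LPS arrays, and 235 and 254 on the resting arrays (probe PH_hs_0009260). The LC53 plus LPS arrays were the lowest, and LPS and resting arrays overlapped. The difference was -0.36 ± 0.19 for LC53 plus LPS minus LPS (-0.84 to 0.12; adjusted p = 0.38) and 0.09 ± 0.19 for LPS minus resting (-0.38 to 0.57; adjusted p = 0.862).

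ADA, the gene of adenosine deaminase, read 616 and 604 with LC53 plus LPS, 777 and 836 with LPS and 460.1 and 516 in resting cells on its first probe (PH_hs_0040289). The second probe (PH_hs_0027442) read 518 and 455 with LC53 plus LPS, 602 and 631 with LPS and 368 and 405 in resting cells. On both probes the groups did not overlap, and the LC53 plus LPS arrays lay between LPS and resting arrays. LPS minus resting was 0.73 ± 0.18 (0.28 to 1.17; adjusted p = 0.0811) and 0.67 ± 0.18 (adjusted p = 0.104), and these passed with the offset of 50 (0.0117 and 0.0201), quantile normalization (0.0262 and 0.0366) and cyclic loess (0.0211 and 0.0304). LC53 plus LPS minus LPS was -0.40 ± 0.18 (adjusted p = 0.307) and -0.34 ± 0.18 (adjusted p = 0.374).

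CD38, the gene of a surface enzyme that turns NAD into cyclic ADP-ribose, read 2727 and 3377 with LC53 plus LPS, 2998 and 2893 with LPS and 2233 and 2478 in resting cells (probe PH_hs_0022850). All stimulated arrays were above the resting arrays, and the stimulated groups overlapped. The differences were 0.32 ± 0.20 for LPS minus resting (-0.16 to 0.81; adjusted p = 0.459) and 0.04 ± 0.20 for LC53 plus LPS minus LPS (-0.45 to 0.53; adjusted p = 0.929).

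**Figure D3:**
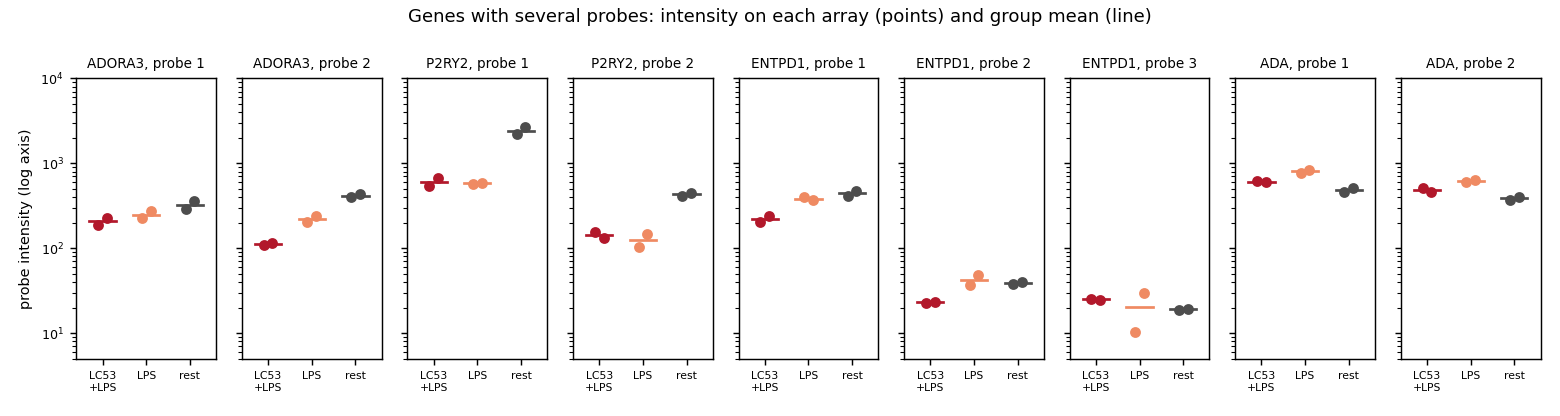
Probe intensity (log axis) of the genes with several probes on each array (points) with group means (line), for LC53 plus LPS, LPS and resting cells from left to right. The probes of P2RY2 and of ADA give the same order of groups for resting against stimulated cells, ADORA3 falls more steeply on its second probe (111 and 116 with LC53 plus LPS), and the third ENTPD1 probe is dim throughout.

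Counted over probes, 5 of the 15 passed for LPS minus resting, where 6.52% of all probes passed. The 3 higher were ADORA2A, P2RX7 and P2RX4 (4.02% of all probes passed as higher), and the 2 lower were both P2RY2 probes (2.5% as lower). The arrays of the 2 groups did not overlap for 12 of the 15 probes, as for 46.4% of all probes. In LC53 plus LPS minus LPS 1 of 15 passed, ADORA2A lower, where 2.63% of all probes passed, 0.687% as higher and 1.94% as lower. In that comparison 5 member probes passed after quantile normalization or cyclic loess, 1 higher (ADORA2B) and 4 lower, where 11.8% and 11.3% of all probes passed under these settings. The arrays of the 2 groups did not overlap for 9 of the 15, against 45.1% of all probes. In LC53 plus LPS minus resting 6 of 15 passed, where 2.96% of all probes passed. The 3 higher were ADORA2A, ADORA2B and P2RX4 (1.75% of all probes as higher), the 3 lower were both P2RY2 probes and the second ADORA3 probe (1.21% as lower), and all 15 did not overlap, against 57.8% of all probes. The median log2 difference of the 15 probes was 0.10 for LPS minus resting, -0.34 for LC53 plus LPS minus LPS and 0.32 for LC53 plus LPS minus resting. The 3 comparisons share arrays, so their counts are not independent, and the 10 genes were chosen with earlier results of these data known.

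A wider list of 49 purinergic genes outside the 10 (other receptors, nucleotidases, deaminases, nucleoside transporters and ATP release channels) had 48 measured, each read by its first probe. Of these, 5 passed for LPS minus resting (10.4%), where 7.53% of all genes passed, with 3 higher and 2 lower against 4.45% and 3.08% of all genes. In LC53 plus LPS minus LPS 1 passed, lower, or 2.08% against 3.11% of all genes, of which 0.876% were higher and 2.24% lower. In LC53 plus LPS minus resting 3 passed, or 6.25% against 3.52% of all genes, with 1 higher and 2 lower against 2.03% and 1.5%. The median log2 difference of the 48 was -0.01, 0.06 and 0.09 in the same order of comparisons, where the medians of all genes were -0.07, 0.16 and 0.10. Of the 48 genes 15 had a mean under 50 in every group.

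Among enzymes of this list that act on AMP, ACP3 and AMPD3 passed. ACP3, an acid phosphatase that can make adenosine from AMP, read 637 and 607 with LC53 plus LPS, 1743 and 1992 with LPS and 854 and 905 in resting cells. It fell with LC53 plus LPS against LPS by 1.58 on the log2 scale (SE 0.18; limma adjusted p = 0.0171), after a rise with LPS of 1.08 ± 0.18 (adjusted p = 0.0262). Both other ACP3 probes also passed for LC53 plus LPS minus LPS, at -1.27 ± 0.21 (adjusted p = 0.0432) and -1.51 ± 0.19 (adjusted p = 0.0208). For LPS minus resting neither of them passed, at 0.89 ± 0.21 (adjusted p = 0.0712) and 0.88 ± 0.19 (adjusted p = 0.0545). The fall of the first probe ended as a call without LC53 plus LPS replicate 1 (0.118) or 2 (0.143) or either resting array (0.0706 each), and the rise without any array except those of LPS (0.0806 to 0.275) and under median centring (0.0647). AMPD3, an AMP deaminase, read 329.8 and 248 with LC53 plus LPS, 464 and 724 with LPS and 99.2 and 98.8 in resting cells on its first probe. This was a rise with LPS of 2.55 ± 0.28 (adjusted p = 0.00692), a call that ended without resting replicate 1 or 2. The second AMPD3 probe also rose with LPS (2.12 ± 0.22, adjusted p = 0.00553). For LC53 plus LPS minus resting the second probe passed (1.30 ± 0.22, adjusted p = 0.044) and the first did not (1.53 ± 0.28, adjusted p = 0.0563).

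Among the other genes of the list that passed, P2RY8, which is in the list by its name, read 1102 and 1233 with LC53 plus LPS, 1137 and 1375 with LPS, and 3270.4 and 3491 in resting cells. It fell with LPS (-1.43 ± 0.20, adjusted p = 0.0135) and with LC53 plus LPS against resting cells (-1.54 ± 0.20, adjusted p = 0.0207), as P2RY2 did. PANX2, a pannexin channel gene, read 450.3 and 334 with LC53 plus LPS, 107 and 164 with LPS and 57.5 and 46.4 in resting cells. It rose with LC53 plus LPS against resting cells (2.91 ± 0.29, adjusted p = 0.0105), where its second probe gave 1.22 ± 0.41 and did not pass (adjusted p = 0.223). The first probe's differences for LPS minus resting (1.36, adjusted p = 0.0559) and LC53 plus LPS minus LPS (1.55, adjusted p = 0.0625) did not pass. SLC17A9, which loads ATP into vesicles, fell with LC53 plus LPS against resting cells (-1.44 ± 0.20, adjusted p = 0.028), with 323 and 402 against 929 and 1029. SLC29A1, an adenosine transporter, fell with LPS (-1.14 ± 0.19, adjusted p = 0.0274), with 703 and 842 against 1651 and 1739.7. ENPP2, which encodes autotaxin, rose with LPS (1.26 ± 0.22, adjusted p = 0.0277), with 389.6 and 509 against 179 and 193. The calls of P2RY8 (LPS minus resting) ended without resting replicate 1 (0.131) or 2 (0.146), and those of ENPP2 and SLC29A1 without any one LC53 plus LPS or resting array (0.0705 to 0.244), SLC29A1 also without LPS replicate 1 (0.0514) and under median centring (0.0594). The calls of P2RY8, PANX2 and SLC17A9 in LC53 plus LPS minus resting ended without any one of the 4 arrays compared (0.0601 to 0.265).

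The remaining adenosine receptor, ADORA1, which lowers cyclic AMP, read 35.3 and 45.7 with LC53 plus LPS, 29.2 and 53.8 with LPS and 35.7 and 43.4 in resting cells, with all 3 groups overlapping. P2RY6, a receptor for UDP, read 2461 and 2329 with LC53 plus LPS, 2297 and 2886 with LPS and 2429 and 2706 in resting cells on its first probe, also overlapping. On its second probe the LPS arrays (2180 and 2941) lay above the resting arrays (2013 and 1923). That difference was 0.36 ± 0.24 and did not pass (limma adjusted p = 0.502). PANX1, the pannexin best known for ATP release, read 3708 and 3574 with LC53 plus LPS, 3411 and 3612 with LPS and 1989 and 1985 in resting cells; the stimulated arrays were above the resting ones, with 0.82 for LPS minus resting (adjusted p = 0.0518). ADORA1, P2RY6 and PANX1 were picked after their values were seen.

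**Figure D4:**
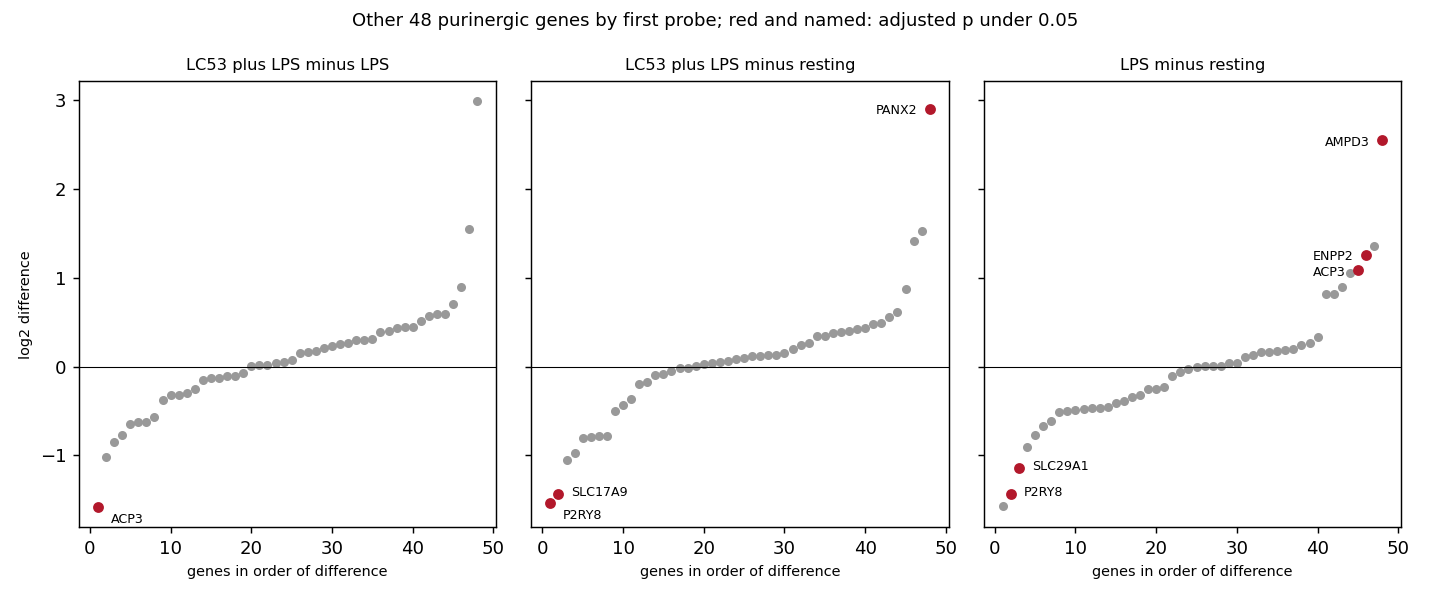
Log2 differences (vertical axis) of 48 other purinergic genes by first probe, in order of size within each comparison (horizontal axis), red and named where the adjusted p is under 0.05. The outlying grey point at 2.99 in LC53 plus LPS minus LPS is SLC29A2, whose values were dim and whose adjusted p was 0.145.

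Genes most like a member were found by the Euclidean distance between log2 profiles over the 6 arrays, each centred on its own mean, for the 4 called genes with the largest range of group means. For ADORA2A these were RGL1 (distance 0.62), a gene of a Ral exchange factor, SLAMF8 (0.64), of the SLAM receptor family, and CD80 (0.68), a co-stimulatory ligand. RGL1 averaged 2561 with LC53 plus LPS, 7590.3 with LPS and 269 in resting cells. For ADORA2B they were SRXN1 (0.84), which encodes sulfiredoxin, the endothelin receptor gene EDNRB (1.17) and the centrosome gene CDK5RAP2 (1.25). SRXN1 averaged 12182 with LC53 plus LPS, 2071 with LPS and 859.5 in resting cells. For P2RY2 they were the cytidine deaminase gene CDA (0.28), the inhibitory receptor gene CD300A (0.37) and the phosphatase gene PTPN22 (0.41). For P2RX7 they were the adaptor gene SH2B3 (0.13), the metalloprotease gene ADAM28 (0.14) and the kinase gene LYN (0.19). These are the nearest of the gene profiles on 6 arrays, a description that says nothing of shared control.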

How the data were processed

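RNA of 6 THP-1 samples was labelled with Cy5 after amplification, per the labels. The authors deposited linear probe intensity for 31741 probes per array. On each array all values were whole multiples (tolerance 0.02) of a single factor, 0.906 to 1.12, so a linear scaling was seen. The reciprocals of the factors average 1.0000 in each group, so the scaling was relative within groups. It did not make the arrays of a group alike, as the LPS arrays kept medians of 84.4 and 124.04. A common scale between groups is not shown, which bears on every difference between groups. How the authors corrected background or chose these factors, and the scanner, are not stated. Values under 1 were set to 1, log2 was taken, and the arrays were used as deposited. Between 38 and 95 probes per array were saturated, and no member probe was.

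Probes were named through the platform's probe table, with symbols updated through the RefSeq gene table (GRCh38.p14). Of all probes 24658 had 1 symbol (2177 of them updated), 1002 several and 6081 none. A gene's first probe was that with the highest mean log2 value.

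limma 3.58.1 in R 4.3.3 fitted 1 mean per group over all 6 arrays, with moderated 2-sided tests of the 3 contrasts and Benjamini-Hochberg adjustment over all probes. The fit was tested on simulated data. The number of arrays limited the precision. Alternatives were an offset of 50, quantile normalization, median centring, cyclic loess, only probes with a mean of at least 50, a replicate block, only the 4 arrays compared, and each array left out in turn.

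The 10 members were all named. Of the 49 other purinergic genes, those whose first probe passed were named, and TNF, IL1B and HMOX1 were set as a check of the treatments. TNF averaged 4398 with LC53 plus LPS, 13563 with LPS and 778 in resting cells. The members and lists were chosen with earlier results of these data known. Python 3.11.15, pandas 2.3.3 and matplotlib 3.10.9 made the tables and figures.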

Additional observations from a re-analysis of the deposited data

How the results depend on the processing

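Counts of probes that passed moved with the processing. For LPS minus resting 2069 passed (61.7% higher), and 3519 passed with the offset of 50, 5157 with quantile normalization (49.5% higher), 5032 with cyclic loess and 1200 with only the 4 arrays compared, with 479 to 2579 when 1 array was left out (38.0% higher without LPS replicate 2). For LC53 plus LPS minus LPS 834 passed (26.1% higher), and 2367 with the offset, 3755 with quantile normalization (43.9% higher), 3585 with cyclic loess, 1856 without dim probes and 305 with 4 arrays, with 91 to 2318 when 1 array was left out. Without LPS replicate 2, the brightest array, 73.1% of the 2318 were higher, so the balance of directions turned. For LC53 plus LPS minus resting 941 passed (59.2% higher), and 2198, 3494 (43.5% higher), 3370 (44.7% higher), 1925 and 1555 under the same settings, with 75 to 1555 when 1 array was left out. Of the 15 member probes 5 passed for LPS minus resting, where 6.52% of all probes passed. With the offset, quantile normalization or cyclic loess 8 passed, where 11.1%, 16.2% and 15.9% of all probes passed. Without dim probes 8 of the 13 tested passed, where 15.7% of the 19620 probes tested passed. Some member calls ended without resting replicate 1 or 2, where fewer of all probes passed too. For LC53 plus LPS minus LPS 1 passed, where 2.63% of all probes passed. Under the same 4 settings 5 passed, where 7.46%, 11.8%, 11.3% and 9.46% of all probes tested passed. With median centring 2 passed, where 2.88% of all probes passed. The member call ended without LC53 plus LPS replicate 1 or 2, where fewer of all probes passed too. More member probes and more of all probes passed without LPS replicate 2. For LC53 plus LPS minus resting 6 passed, and 10 with quantile normalization, with 0 to 7 when 1 array was left out (0 without LC53 plus LPS replicate 1 or 2 or resting replicate 1, and 1 without resting replicate 2). The cause of these shifts was not tested, nor was the part of fewer arrays or probes in the settings that leave some out.

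Over all probes, the differences between replicates 1 and 2 correlated at 0.20 for LC53 plus LPS and resting and 0.06 for LPS and resting. For LC53 plus LPS and LPS the correlation was -0.08. With 1 such difference per group, these values cannot show whether samples of equal replicate number were paired. With the replicate block 1492, 389 and 481 probes passed for LPS minus resting, LC53 plus LPS minus LPS and LC53 plus LPS minus resting. These were 4.70%, 1.23% and 1.52% of all probes, beside 4, 1 and 3 of the 15 member probes. With the block P2RX4 was at adjusted p = 0.054 for LPS minus resting, and P2RX4, ADORA2B and the second P2RY2 probe were at 0.0813, 0.075 and 0.0711 for LC53 plus LPS minus resting. With the block SLC29A1 was at 0.0547 and ACP3 at 0.05003 for LPS minus resting.

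Leaving out an array of the group not compared gives the same fit as the 4 arrays compared, so 11 of the 13 alternatives were distinct for each comparison. Over the member probes and all 13, no called difference changed sign. In 35 cases a call ended, in 47 a difference that had not passed did so, and 497 kept their side of the threshold. Dim values, such as those of ADORA2B in resting cells, limit how well a fold is measured.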
